A study of Mus musculus with 9 samples.

Results

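Hyaluronan synthesis, turnover and binding were followed through 7 genes, chosen by name for their known roles: the synthases Has1 and Has2, the hyaluronidases Hyal1 and Hyal2, the receptor Cd44, and the secreted binding proteins Tnfaip6 and Vcan. All probes on the array that carried one of these symbols, or failing that listed it as a synonym, were taken. This gave 19 of 45281 gene probes, for 6 of the 30869 gene symbols on the array. No probe matched Tnfaip6, which was not analysed here. Has1, Has2, Hyal1, Hyal2, Cd44 and Vcan had 2, 1, 2, 1, 9 and 4 probes, respectively. Of the 19 probes, 11 were detected on at least 3 of 9 arrays and were tested, 5 were detected on 1 or 2 arrays and 3 on none.

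Transcripts of activated hepatic stellate cells (aHSCs), the scar-forming cells of the liver, were measured on MouseWG-6 v2.0 bead arrays (Illumina), 1 for each sample. All cells came from WT1GFP/+ mice, in which green fluorescent protein (GFP) replaces 1 copy of Wt1 and reports its activity, so the control cells carried the reporter allele too. WT1-high (GFP high, replicates 1, 8 and 29) and WT1-intermediate (GFP low, replicates 1, 8 and 30) cells came from livers of adult male C57/Bl6 animals chronically injured with carbon tetrachloride (CCl4). They were sorted without culture from the stellate cell fraction obtained by density centrifugation of the digested livers. WT1-negative cells (GFP negative, replicates 3, 11 and 14) were sorted after stellate cells from uninjured WT1GFP/+ livers had been activated for 7 days on plastic. These are labelled C57/Bl6 too. The study's methods name male and female mice for in vitro work, so sex may also differ. Cells taken straight from liver were always WT1-positive and from injured animals, and cells from culture always WT1-negative and from uninjured ones. Effects of WT1 status, of the reporter level, of injury and of growth in culture therefore cannot be told apart in any comparison with WT1-negative cells. Both such comparisons also share the same 3 WT1-negative arrays. In each sorted population, fewer cells of a type and less RNA per cell cannot be told apart.

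Hyaluronan is a long, unbranched sugar polymer that is made at the cell surface by membrane synthases and pushed straight into the extracellular space. It is cut by hyaluronidases, taken up by receptors of endothelial cells and macrophages, and held in the matrix by binding proteins such as versican and the heavy chains of inter-alpha-trypsin inhibitor. Liver sinusoids are a main site of hyaluronan clearance, activated stellate cells are a source of it in fibrotic liver, and mesothelial cells coat themselves with it.

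Mean signals per array lay between 147 and 289, against median negative control signals of 76.3 to 93.6, and 38.1% to 43.7% of gene probes were detected. The marker lists did not describe a single cell type. Desmin, Pdgfrb, Reln, Cygb and the fibrillar collagens of the stellate list were detected on every array, whereas Gfap and Rgs5 were detected on none and Lrat on 1. All 15 mesothelial markers were tested and detected on every WT1-high and WT1-intermediate array, with summed levels (linear scale) of 53718 to 57239 in WT1-high, 38847 to 45179 in WT1-intermediate and 541 to 779 in WT1-negative samples, where 7 of 15 were detected on no array. The summed levels of the 20 macrophage markers went the opposite way, at 4765 to 7725, 15796 to 25194 and 50262 to 56743. In WT1-negative samples Clec4f, Timd4, Ptprc and Cd5l (the last on no array of any group) were not detected.

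The probes that the results below turn on are shown as the first 30 of their 50 bases, 5′ to 3′, as the deposited probe table gives them. The place of these stretches in the transcripts was not given in that table. No 2 of the 9 Cd44 probes share a run of more than 8 bases anywhere in their 50, so each reads its own stretch of transcript, and the 2 Has1 probes share no more than 5.
Has1 ILMN_2997282: cgtcggagcggtggttaccgtgtccaagta
Has1 ILMN_1228419: ggaagagacaaggtaggtgggttgagtgac
Has2 ILMN_1254975: cgttcaagttctgaaaaactccgactctcg
Hyal1 ILMN_2644375: ttcacttacctcacacaagctacccagcca
Hyal2 ILMN_1230039: gctaggccagagaaggcctgactctactcc
Cd44 ILMN_1223697: gggaacccctcaaaaagccacaggactgcc
Cd44 ILMN_2474229: gtgtctttgtgtaagtcctatgtgttgact
Cd44 ILMN_3114585: ctagggtctctggtgtgaagggtctgggaa
Cd44 ILMN_2754990: ttcctggacagatttcttcgacccaatctc
Vcan ILMN_2669627: cctatcacctcaagaagaattagaagttgg

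Across the 6 genes, each represented by its brightest tested probe, Has1 and Vcan were higher and Hyal1 and Hyal2 lower in both WT1-positive populations than in WT1-negative cells, and Has2 alone differed between the WT1-positive populations. Has1 and Vcan were detected on no WT1-negative array, so they entered the test only through the liver-derived groups. In WT1-high against WT1-negative cells 5 of 6 genes were called (2 higher, 3 lower), where a call is an adjusted p under 0.05 by limma with Benjamini-Hochberg adjustment over all 20573 tested probes. Of all tested probes, 59.6% were called in that comparison (26.5% higher, 33.1% lower). In WT1-intermediate against WT1-negative cells 4 of 6 genes were called (2 higher, 2 lower), beside 58.0% of all probes (24.4% higher, 33.6% lower). In WT1-high against WT1-intermediate cells 1 of 6 was called, as lower, beside 3.55% of all probes (0.904% higher, 2.64% lower). A call against WT1-negative cells was thus common over the whole array. So were groups without overlap. Of all tested probes, 30.7% had every WT1-high sample above every WT1-negative one and 37.7% had every one below. For WT1-intermediate against WT1-negative samples these shares were 28.0% and 37.5%. Between the WT1-positive populations, 11.5% had WT1-high samples wholly above WT1-intermediate ones and 8.60% wholly below. With detection required on all 9 arrays, which dropped Has1 and Vcan, 3 of 4 genes were called against WT1-negative cells for WT1-high and 2 of 4 for WT1-intermediate, all as lower. Median log2 differences of the 6 genes were -0.51, 0.14 and -0.18 in these 3 comparisons, and those of all tested probes were -0.10, -0.13 and 0.05.

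**Figure D1:**
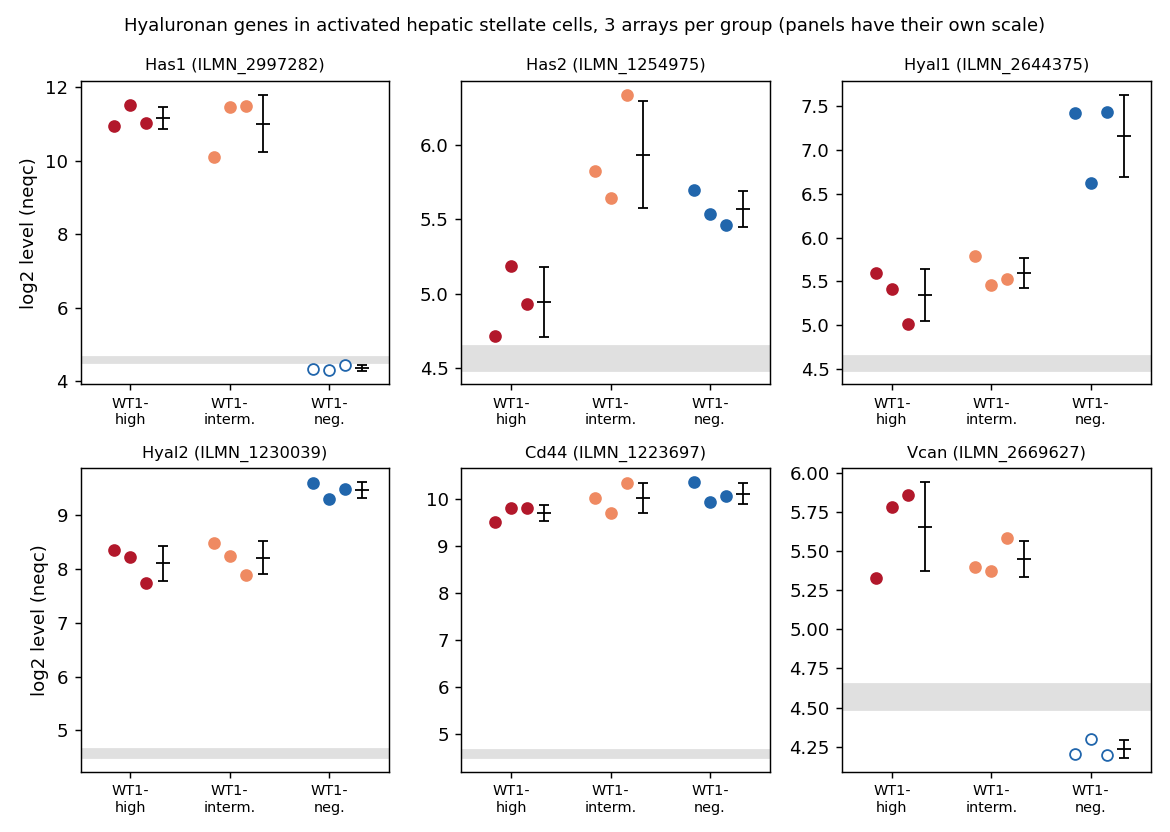
log2 levels (y axis, neqc-normalized, own scale in each panel) of the brightest tested probe of Has1, Has2, Hyal1, Hyal2, Cd44 and Vcan on the 9 arrays, with the mean and SD of each group of 3 in black, open circles for arrays on which the probe was not detected and a grey band for the lowest detected signal per array (4.48 to 4.65). Has1 stands near 11 in both WT1-positive groups and in the background of WT1-negative cells, while Has2 is lowest in WT1-high cells.

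Has1 (chromosome 17) encodes a hyaluronan synthase of the plasma membrane. On probe ILMN_2997282 its log2 levels were 10.95, 11.52 and 11.03 in WT1-high replicates 1, 8 and 29. They were 10.11, 11.46 and 11.48 in WT1-intermediate replicates 1, 8 and 30, and 4.33, 4.30 and 4.44 in WT1-negative replicates 3, 11 and 14. Thus every liver-derived sample was far above every cultured one, and WT1-intermediate replicate 1 was the lowest of the 6 liver-derived samples.

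Has1 was detected on none of the WT1-negative arrays, so its folds are given as lower bounds, beside the fitted differences. Measured against the lowest detected signal of those arrays, WT1-high cells had at least 94.6-fold higher Has1 (log2 difference 6.81, SE 0.32, limma adjusted p 2.4e-08). For WT1-intermediate cells the bound was at least 85.3-fold higher (log2 difference 6.66, SE 0.32, limma adjusted p 3.8e-08). Both WT1-positive populations overlapped, at 11.17 ± 0.31 and 11.02 ± 0.78 (log2, SD, n = 3), and the difference of 0.15 between them (95% interval -0.55 to 0.85, limma adjusted p 0.86) was not called. Leaving out WT1-intermediate replicate 1 turned this difference to -0.30 and leaving out WT1-high replicate 8 turned it to -0.027, again without a call. The second Has1 probe, ILMN_1228419, which the probe table assigns to another cDNA, was detected on no array.

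The mesothelial markers moved with Has1, as their summed levels above show, and their part in the Has1 result was not tested. The genes whose centred pattern over the 9 arrays lay closest to Has1 were Muc16, LOC100047628 and Gpm6a, at a root mean square difference of 0.34, 0.36 and 0.37 on the log2 scale. Has1 itself ranged over 7.22 log2 units. Muc16 and Gpm6a are both on the list of mesothelial markers.

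Has2 (chromosome 15), the synthase that mesenchymal cells are best known for, ran differently. Its log2 levels were 4.72, 5.19 and 4.93 in WT1-high, 5.83, 5.64 and 6.34 in WT1-intermediate, and 5.70, 5.54 and 5.46 in WT1-negative samples, in replicate order. The probe was detected on all 9 arrays. Every WT1-high sample was below every sample of both other groups, and WT1-intermediate and WT1-negative samples overlapped.

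Group means of Has2 were 4.95 ± 0.23 in WT1-high, 5.57 ± 0.12 in WT1-negative and 5.94 ± 0.36 in WT1-intermediate cells (log2, SD, n = 3). WT1-high cells were 1.99-fold below WT1-intermediate cells (log2 difference -0.99, SE 0.20, 95% interval -1.42 to -0.55, limma adjusted p 0.021). Within animals the difference was -1.11 between the samples numbered 1, -0.46 between those numbered 8 and -1.40 between WT1-high 29 and WT1-intermediate 30, so all 3 pairs went the same way. WT1-high cells were also 1.54-fold below WT1-negative cells (log2 difference -0.62, SE 0.20, limma adjusted p 0.018), a call that was lost without WT1-high replicate 1 (limma adjusted p 0.073) or WT1-negative replicate 3 (0.065). WT1-intermediate and WT1-negative cells, neighbours in this order, differed by 0.37 (95% interval -0.07 to 0.80, limma adjusted p 0.13), which was not called.

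This Has2 signal was dim, and the call between the WT1-positive populations depended on how the data were handled. Before normalization the probe stood 11.1, 36.7 and 14.3 intensity units above the median negative control in WT1-high samples. It stood 27.1, 36.5 and 25.8 units above in WT1-intermediate samples and 35.6, 35.5 and 31.1 in WT1-negative ones, so that on this raw scale WT1-high replicate 8 stood as high as any sample of the other groups, and replicates 1 and 29 stood below all of them. With the animal as a fixed block, taking 29 and 30 as 1 animal, the difference was -0.99 (limma adjusted p 0.0097), and with a random block on the label numbers -0.93 (limma adjusted p 0.0082). With a fixed block on the label numbers alone, in which only the samples numbered 1 and 8 are matched, it was -0.78 and not called (limma adjusted p 0.075). The call was also lost without background correction (-0.33, limma adjusted p 0.071), with median scaling (-0.52, 0.11), with no detection filter or only the pair of groups in the fit (0.072 and 0.070), and without WT1-intermediate replicate 1, WT1-high replicate 1 or WT1-high replicate 29 (adjusted p 0.054, 0.065 and 0.063 by limma), while the sign stayed negative in all 21 alternatives.

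Macrophage markers also differed between the WT1-positive populations, with 13 of the 19 tested called lower in WT1-high cells and none higher, and endothelial markers had summed levels of 1195 to 1555 against 1900 to 2437, with 3 of the 11 tested called lower. Of all tested probes, 2.64% were called lower in this comparison. The brightest endothelial marker, Clec4g, was not called (-0.69, limma adjusted p 0.22), and Kdr and Vwf differed by 0.17 and -0.08 without a call. The part of both marker lists in the Has2 difference was not tested. Closest to Has2 in pattern were Msc, Penk1 and LOC100045940, at root mean square differences of 0.14, 0.17 and 0.21, against a Has2 range of 1.62.

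Hyal1 and Hyal2 (chromosome 9 for Hyal2) encode the hyaluronidases that work together in most tissues: Hyal2 is anchored at the cell surface and cuts large hyaluronan, and Hyal1 degrades the fragments in lysosomes. Both genes are direct neighbours in the RefSeq annotation of GRCm38.p6, in a cluster that runs Tusc2, Hyal2, Hyal1, Naa80, Hyal3. Hyal1 log2 levels on ILMN_2644375 were 5.60, 5.41 and 5.02 in WT1-high, 5.78, 5.46 and 5.53 in WT1-intermediate, and 7.42, 6.62 and 7.43 in WT1-negative samples. All cultured samples were above all liver-derived ones, with WT1-negative replicate 11 the lowest of the cultured ones.

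WT1-high cells had 3.52-fold less Hyal1 than WT1-negative cells (log2 difference -1.82, SE 0.23, limma adjusted p 5.4e-05) and WT1-intermediate cells 2.96-fold less (-1.57, SE 0.23, limma adjusted p 1.8e-04). The WT1-positive populations overlapped and differed by -0.25 (95% interval -0.77 to 0.26, limma adjusted p 0.64). The second Hyal1 probe, ILMN_1253049, was detected on 1 array.

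Hyal2 log2 levels on ILMN_1230039 were 8.36, 8.23 and 7.74 in WT1-high, 8.49, 8.25 and 7.89 in WT1-intermediate, and 9.61, 9.31 and 9.49 in WT1-negative samples. The order of the groups was that of Hyal1, and cultured samples again lay above all others. Hyal2 was 2.57-fold lower in WT1-high cells (log2 difference -1.36, SE 0.20, limma adjusted p 1.7e-04) and 2.39-fold lower in WT1-intermediate cells (-1.26, SE 0.20, limma adjusted p 3.2e-04) than in WT1-negative cells. Between the WT1-positive populations the difference was -0.10 (95% interval -0.55 to 0.35, limma adjusted p 0.84), and in each of the 3 animals the WT1-high sample was lower by no more than 0.15, which was within the spread between samples.

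Macrophages express lysosomal and surface hyaluronidases, and the macrophage markers, when summed, were highest in WT1-negative samples (of the 19 tested, 13 were called lower and 2 higher in WT1-high cells, 7 lower and 5 higher in the WT1-intermediate population). Of all tested probes, 33.1% were called lower and 26.5% higher in WT1-high cells, and 33.6% and 24.4% in WT1-intermediate cells. The part of these markers in the hyaluronidase differences was not tested. Closest in pattern to Hyal1 were D230007K08Rik, Mef2c and Edg5 (root mean square differences 0.096, 0.17 and 0.18), and closest to Hyal2 were Ints12, Brd7 and Mfsd9 (0.10, 0.11 and 0.11).

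Cd44 (chromosome 2) encodes the main cell surface receptor for hyaluronan, a transmembrane protein made in many splice forms. Of its 9 probes 5 were tested, and they did not give the same answer. The brightest, ILMN_1223697, had log2 levels of 9.51, 9.81 and 9.81 in WT1-high, 10.03, 9.71 and 10.34 in WT1-intermediate, and 10.36, 9.94 and 10.05 in WT1-negative samples. WT1-high samples lay below WT1-negative ones by a narrow margin and WT1-intermediate samples overlapped with both. On this probe no comparison was called: log2 differences were -0.41 for WT1-high against WT1-negative (95% interval -0.83 to 0.01, limma adjusted p 0.088), -0.09 for WT1-intermediate against WT1-negative (-0.51 to 0.33, 0.71) and -0.32 between the WT1-positive populations (-0.74 to 0.10, 0.44).

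Probe ILMN_2474229 gave log2 levels of 6.31, 7.06 and 7.59 in WT1-high and 7.77, 6.80 and 7.55 in WT1-intermediate samples. In WT1-negative samples it gave 4.71, 4.25 and 4.79, and was not detected in replicate 11. Here every liver-derived sample was above every cultured one. The difference from WT1-negative cells was 2.41 for WT1-high (SE 0.33, limma adjusted p 7.6e-05) and 2.79 for WT1-intermediate cells (SE 0.33, limma adjusted p 2.9e-05), and the WT1-positive populations overlapped (-0.38, limma adjusted p 0.60).

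The other bright probe, ILMN_3114585, overlapped between all groups, at 8.39, 8.45 and 8.79, then 8.87, 8.34 and 9.03, then 8.66, 7.98 and 8.25 (log2, WT1-high, WT1-intermediate, WT1-negative). None of its 3 differences was called (0.25, 0.45 and -0.20, limma adjusted p 0.36, 0.11 and 0.70 for WT1-high against WT1-negative, WT1-intermediate against WT1-negative and WT1-high against WT1-intermediate). ILMN_2754990 was dimmer and was detected on 1 of 3 WT1-negative arrays. Its difference was 1.17 for WT1-intermediate (limma adjusted p 0.0022) and 0.58 for WT1-high cells (limma adjusted p 0.067) against WT1-negative cells. ILMN_2640330 was detected on 1 array of each group and not called. The remaining 4 probes did not pass the detection filter.

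All tested Cd44 probes are assigned to the same transcript record, so the table does not tie the probes that differed to a splice form. Averaged over the 5 tested probes, Cd44 was higher in WT1-high (0.52, limma adjusted p 0.028) and WT1-intermediate cells (0.82, limma adjusted p 0.0025) than in WT1-negative cells, opposite in sign to the brightest probe. For Cd44 as a gene these arrays therefore gave no single direction against WT1-negative cells, and no tested probe was called between the WT1-positive populations. Closest in pattern to the brightest probe were Phactr2, Lmtn and Vsnl1 (root mean square differences 0.11, 0.14 and 0.14, against a Cd44 range of 0.85).

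**Figure D2:**
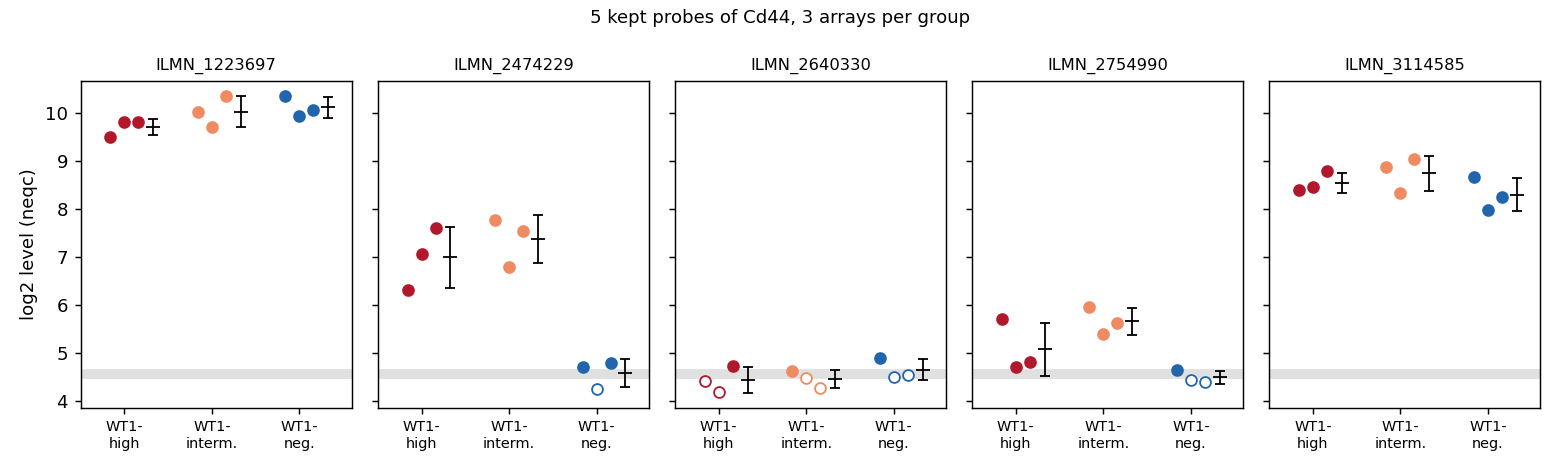
log2 levels (y axis, neqc-normalized, shared scale) of the 5 tested Cd44 probes on the 9 arrays, 1 panel per probe, with the mean and SD of each group of 3 in black, open circles where the probe was not detected and a grey band for the lowest detected signal per array. ILMN_2474229 parts the liver-derived from the cultured samples (differences 2.41 and 2.79), whereas the brighter ILMN_1223697 and ILMN_3114585 do not.

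Vcan (chromosome 13) encodes versican, a large proteoglycan that binds hyaluronan in the extracellular matrix. Its log2 levels on ILMN_2669627 were 5.33, 5.78 and 5.86 in WT1-high, 5.40, 5.37 and 5.58 in WT1-intermediate, and 4.21, 4.30 and 4.20 in WT1-negative samples. All liver-derived samples were above all cultured ones, in which the probe was not detected. Against those arrays the level of Vcan was at least 2.07-fold higher for WT1-high (log2 difference 1.42, SE 0.16, limma adjusted p 2.3e-05) and at least 1.80-fold higher for WT1-intermediate cells (1.21, SE 0.16, limma adjusted p 8.7e-05). WT1-high and WT1-intermediate samples overlapped (0.21, 95% interval -0.15 to 0.57, limma adjusted p 0.57).

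The result rests on 1 of 4 Vcan probes, and a probe under the older symbol Cspg2, which the matching rule does not reach, was left out. ILMN_1247540, detected on 4 arrays, differed by 0.19 and 0.24 from WT1-negative cells without a call (limma adjusted p 0.28 and 0.18), and each of the others was detected on 1 array. The genes closest to Vcan in pattern were Dscr1, LOC56628 and Clasp1 (root mean square differences 0.097, 0.11 and 0.13, against a Vcan range of 1.66).

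A further list of 38 genes covered the rest of the pathway, from sugar precursors to receptors and cross-linking proteins. Of these, 37 had a probe (Has3 did not) and 24 passed the detection filter. Among the 24, 11 were called in WT1-high against WT1-negative cells (7 higher, 4 lower), 11 in WT1-intermediate against WT1-negative cells (7 higher, 4 lower) and 4 in WT1-high against WT1-intermediate cells (all lower). The shares were 45.8%, 45.8% and 16.7%, beside 59.6%, 58.0% and 3.55% of all tested probes, and the median log2 differences were 0.05, 0.21 and -0.03.

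Against WT1-negative cells, 3 of the 5 tested genes that supply hyaluronan's precursors were higher in the WT1-high and 2 in the WT1-intermediate population, where 59.6% and 58.0% of all tested probes were called (26.5% and 24.4% as higher). Gfpt2, an isoform of the enzyme that starts amino sugar synthesis, had log2 levels of 11.20, 11.55 and 11.65 in WT1-high, 10.16, 10.81 and 11.28 in WT1-intermediate, and 6.74, 6.82 and 6.86 in WT1-negative samples. Every liver-derived sample was above every cultured one. It was 25.3-fold higher in WT1-high cells (log2 difference 4.66, limma adjusted p 6.0e-08) and 15.4-fold higher in WT1-intermediate cells (3.94, limma adjusted p 2.7e-07). Uap1, which makes the activated N-acetylglucosamine that the synthases use, was 8.82-fold and 6.39-fold higher (3.14 and 2.68, limma adjusted p 4.3e-06 and 1.8e-05). Pgm3, the enzyme one step before Uap1, had a level at least 1.36-fold higher in WT1-high cells (0.59, limma adjusted p 0.017) and did not pass in WT1-intermediate cells (0.38, limma adjusted p 0.099). Pgm3 was dim and was detected on no WT1-negative array and on 5 liver-derived ones, so it passed the detection filter only through the liver-derived groups. Gfpt1 and Ugp2 were not called, and Ugdh, which makes the glucuronic acid precursor, and Gnpnat1 were detected on no array. None of the 5 was called between the WT1-positive populations in the fit without a block, in which Gfpt2 was higher in WT1-high cells by 0.72 (limma adjusted p 0.15). Gfpt2 was called there with a fixed block that took 29 and 30 as 1 animal (limma adjusted p 0.019). It was also called with a fixed block on the label numbers (0.027) and with a random one (0.035).

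Of the 5 tested turnover genes besides Hyal1 and Hyal2, 3 were lower in both WT1-positive populations than in WT1-negative cells, beside 59.6% and 58.0% of all tested probes called (33.1% and 33.6% as lower). Hexa, a subunit of the lysosomal hexosaminidases that finish hyaluronan breakdown, had log2 levels of 9.01, 8.96 and 9.14 in WT1-high, 10.05, 9.80 and 9.83 in WT1-intermediate, and 10.87, 11.43 and 11.23 in WT1-negative samples. Gusb, the lysosomal beta-glucuronidase that works beside it, had 9.15, 9.27 and 9.19, then 10.40, 9.95 and 9.99, then 11.81, 11.47 and 11.80. After normalization the 3 groups were ordered without overlap in both genes, WT1-high lowest and WT1-negative highest. Before it, WT1-high and WT1-intermediate samples overlapped, with mean intensities of 681 and 714 for Hexa and 768 and 827 for Gusb. On that raw scale WT1-high 29 stood above WT1-intermediate 30 in both genes (627 against 465 and 647 against 508). Of all tested probes, 8.60% had WT1-high samples wholly below WT1-intermediate ones, and 37.5% had WT1-intermediate samples wholly below WT1-negative ones.

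Each step of the order after normalization was called. For WT1-high against WT1-intermediate cells, log2 differences were -0.86 for Hexa and -0.91 for Gusb (limma adjusted p 0.020 and 0.014). With a fixed block on the label numbers Hexa lost this call (limma adjusted p 0.051) and Gusb kept it (0.046). Against WT1-negative cells, Hexa in WT1-high cells was lower by a log2 difference of -2.14 and in WT1-intermediate cells by one of -1.28 (limma adjusted p 1.2e-06 and 6.9e-05), and the differences of Gusb were -2.49 and -1.58 (3.6e-07 and 1.4e-05). The other Gusb probes were also lower in both WT1-positive populations than in WT1-negative cells and were not called between the WT1-positive ones (-0.96 and -0.48, limma adjusted p 0.18 and 0.22). Tmem2, a cell surface hyaluronidase, was lower in WT1-high (-1.77, limma adjusted p 1.4e-04) and WT1-intermediate cells (-2.10, limma adjusted p 4.6e-05), while 1 of its 3 tested probes showed no call (0.07 and 0.22).

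Of the 4 tested receptors besides Cd44, Stab1 was the one called against WT1-negative cells. Stab1, a scavenger receptor of sinusoidal endothelium and some macrophages, was lower in WT1-high (-2.26, limma adjusted p 4.8e-05) and WT1-intermediate cells (-1.63, limma adjusted p 5.9e-04). Its second tested probe, ILMN_2727432, gave -4.79 and -3.46 there. That probe was also called lower in WT1-high than in the WT1-intermediate population (-1.33, limma adjusted p 0.023), where the brightest one was not (-0.64, limma adjusted p 0.29). Stab2, the main endothelial receptor for hyaluronan clearance, had log2 levels of 5.68, 5.33 and 6.08 in WT1-high, 6.30, 6.72 and 6.87 in WT1-intermediate, and 6.27, 6.27 and 5.96 in WT1-negative samples. WT1-high samples were below WT1-intermediate ones (-0.93, limma adjusted p 0.038) and overlapped with WT1-negative ones. Before normalization WT1-high and WT1-intermediate samples overlapped for Stab2, with mean intensities of 130 and 137. With a fixed block on the label numbers this call was lost (limma adjusted p 0.052). Lyve1, the hyaluronan receptor of lymphatic and sinusoidal endothelium, differed likewise between the WT1-positive populations by -0.92 without a call (limma adjusted p 0.062). It was called with a fixed block that took 29 and 30 as 1 animal (limma adjusted p 0.037). A fixed block on the label numbers (0.027) and a random one (0.013) also gave a call. Summed endothelial markers were also lower in WT1-high than in WT1-intermediate samples, as given above for Has2. The summed macrophage markers followed the order of Hexa and Gusb, while single ones went either way against WT1-negative cells, as given above. The part of both marker lists in the differences of Hexa, Gusb, Stab1, Stab2 and Lyve1 was not tested.

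The proteins that bind and cross-link hyaluronan outside the cell included the genes of the inter-alpha-trypsin inhibitor heavy chains, of which Itih1, Itih3, Itih4 and Itih5 were called higher in WT1-high cells and Itih3, Itih4 and Itih5 in WT1-intermediate cells. Ptx3, described below, was called higher in WT1-intermediate cells and not in WT1-high cells. Thus 4 of the 7 tested heavy chain and cross-linking genes were called in each comparison with WT1-negative cells, all as higher. That was 57.1%, beside 59.6% and 58.0% of all tested probes (26.5% and 24.4% as higher). Itih2 (0.50 and 0.09, limma adjusted p 0.19 and 0.82) and Ambp (-0.11 and 0.06, 0.90 and 0.95) were not called. Hapln3, Habp2 and Habp4, the 3 tested matrix binders of the further list, were not called in any comparison. Itih1, Itih4 and Itih5 were detected on no WT1-negative array and on 4, 6 and 4 liver-derived ones, so they passed the detection filter only through the liver-derived groups. Itih4 had log2 levels of 7.97, 8.25 and 7.73 in WT1-high, 6.91, 7.78 and 7.13 in WT1-intermediate, and 4.43, 4.32 and 4.47 in WT1-negative samples, in which it was not detected. Against those arrays its level was at least 10.4-fold higher for WT1-high (log2 difference 3.57, limma adjusted p 1.9e-07) and at least 6.36-fold higher for WT1-intermediate cells (2.87, limma adjusted p 1.3e-06). Between the WT1-positive populations Itih4 was higher in WT1-high cells by 0.71 without a call (limma adjusted p 0.11). It was called with a fixed block that took 29 and 30 as 1 animal (limma adjusted p 0.018) and with a random block on the label numbers (0.030). Itih1 and Itih5 were close to background, with levels at least 1.54-fold and at least 1.23-fold higher in WT1-high cells (limma adjusted p 0.019 and 0.037), and Itih5 was at least 1.26-fold higher in the WT1-intermediate population (limma adjusted p 0.032). Itih3, also dim, differed by 1.42 in WT1-high (limma adjusted p 0.0082) and 1.12 in WT1-intermediate cells (limma adjusted p 0.028). Its second tested probe, ILMN_2862623, was not called (0.50 and 0.31, limma adjusted p 0.16 and 0.37). These heavy chains are also secreted by hepatocytes, whose markers had summed levels of 476 to 2172 in WT1-high, 588 to 1585 in WT1-intermediate and 226 to 322 in WT1-negative samples. Mesothelial markers moved with them as well, and neither part was tested.

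Ptx3, which encodes the pentraxin that helps to cross-link hyaluronan with the heavy chains, showed the largest difference between the WT1-positive populations among the 30 hyaluronan genes tested. Its log2 levels were 5.59, 6.31 and 6.75 in WT1-high, 8.11, 8.92 and 9.09 in WT1-intermediate, and 6.28, 6.46 and 6.23 in WT1-negative samples. WT1-intermediate samples stood above all others, and WT1-high and WT1-negative samples overlapped. Relative to WT1-intermediate cells, Ptx3 was 5.62-fold lower in WT1-high cells (log2 difference -2.49, limma adjusted p 0.0014). Relative to WT1-negative cells, it was 5.22-fold higher in the WT1-intermediate population (2.38, limma adjusted p 5.3e-05). WT1-high and WT1-negative cells differed by -0.11 (limma adjusted p 0.78). The second Ptx3 probe gave -2.90 between the WT1-positive populations (limma adjusted p 1.3e-04). As with Has2, WT1-intermediate cells had the higher level of the WT1-positive populations, whereas against WT1-negative cells the called difference was in WT1-intermediate cells for Ptx3 and in WT1-high cells for Has2.

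**Figure D3:**
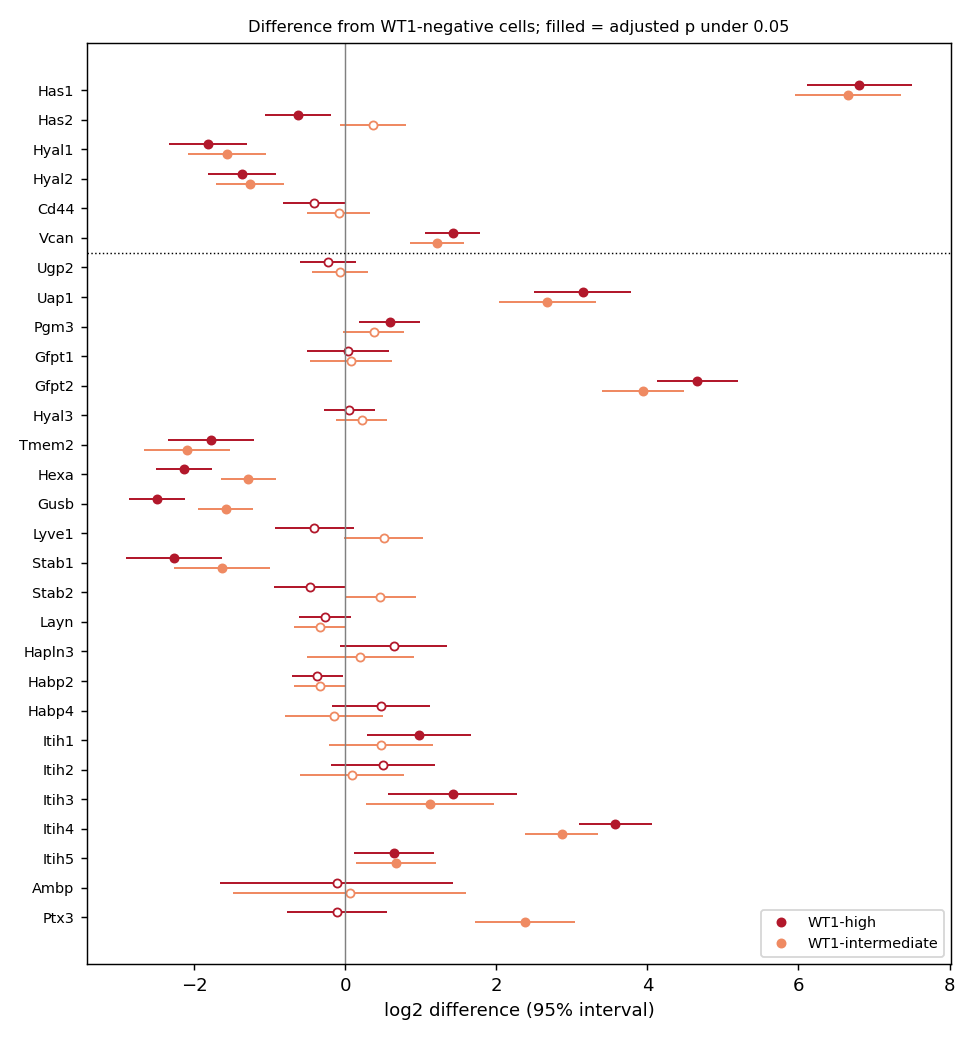
log2 difference from WT1-negative cells with its 95% interval (x axis) for hyaluronan genes (rows, the 6 chosen genes above the dotted line and 23 other tested pathway genes below), in red for WT1-high and orange for WT1-intermediate cells, filled where the adjusted p was under 0.05. Has1 (6.81 and 6.66), Gfpt2 (4.66 and 3.94), Itih4 and Uap1 lie farthest to the right, and Gusb, Hexa, Stab1, Tmem2 and the hyaluronidases Hyal1 and Hyal2 to the left.

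**Figure D4:**
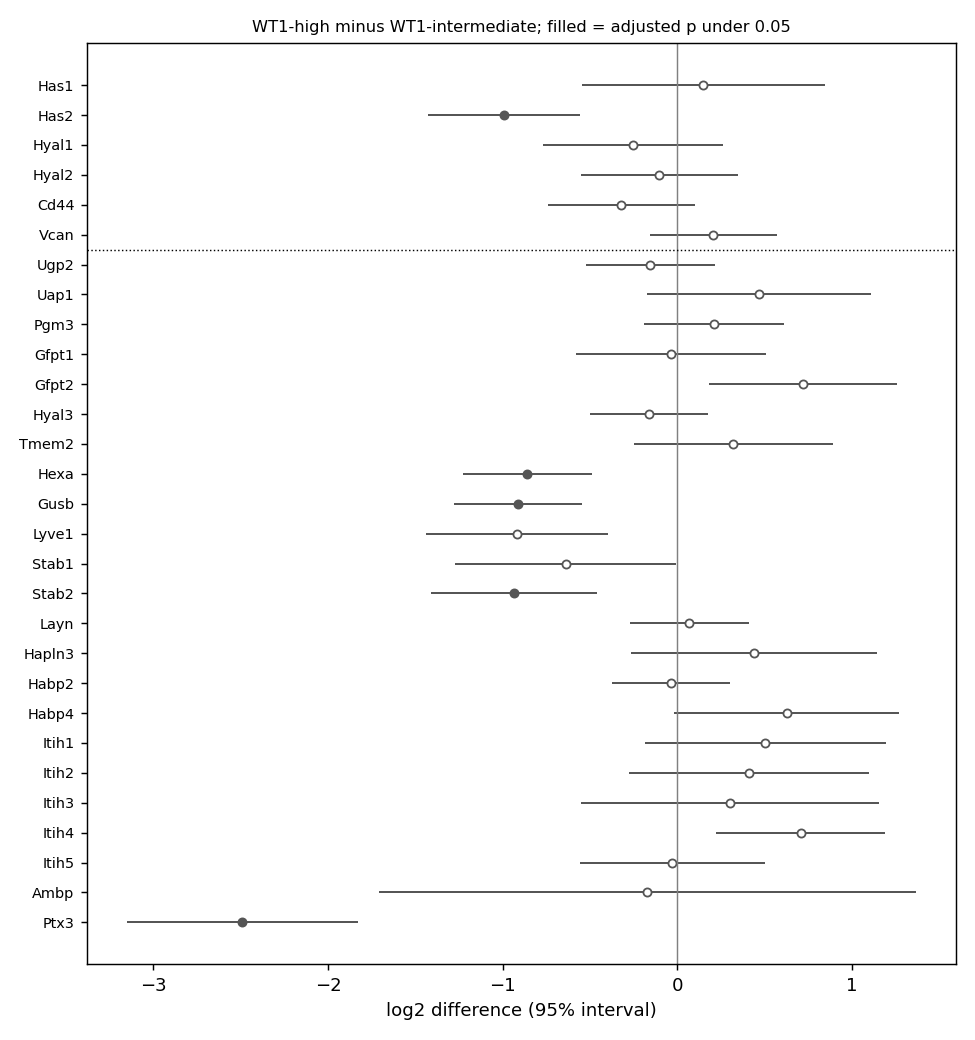
log2 difference of WT1-high minus WT1-intermediate cells with its 95% interval (x axis) for the same 29 genes (rows), filled where the adjusted p was under 0.05. In this fit without a block, the 5 filled points (Has2, Hexa, Gusb, Stab2 and Ptx3) all lie below 0, and Has1, near 0, is not among them.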

How the data were processed

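RNA from 9 samples of sorted mouse aHSCs was hybridized to Illumina MouseWG-6 v2.0 bead arrays. Per the file headers, the authors exported raw probe profiles: mean bead intensity on a linear scale, with no background step or normalization, and a deposited detection p-value (the share of negative controls brighter than the probe). Intensities were read from the table that joins all samples. On the 8 arrays matched by number, it equalled the tables kept per origin (largest difference 0). The latter supplied detection p-values and 936 negative controls. There, the last GFP-low array is numbered 29 where its label says 30. It was used as WT1-intermediate replicate 30, since no other array of the group was left, and its detection p-values matched those recomputed from the joined intensities to within 0.0011.

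Background correction from the controls, quantile normalization and a log2 scale, which the study's methods also outline, were applied by neqc (offset 16) of limma 3.58.1 under R 4.3.3. A detection p under 0.05 on 3 or more of the 9 arrays was required, which left 20573 probes. A linear model with 3 groups (6 residual and 5.19 prior degrees of freedom) was fitted to all arrays. Differences were tested by limma's moderated two-sided test with Benjamini-Hochberg adjustment over all kept probes. A gene was represented by its tested probe with the highest mean level, and genes closest in pattern were the 3 with the smallest root mean square difference after centring each probe. A probe detected on no array of a group was bounded there by the lowest detected signal per array. Levels of different probes were not compared. The number of arrays limits the precision.

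The chosen genes, the further pathway list, the marker lists and the tests were set with earlier results of these data known. Of the further list, genes called in at least 1 comparison were named, with the uncalled ones given by name or count. One gene of that list is included in the counts and not reported here by name or in the plots. The marker lists covered mesothelial, macrophage, endothelial, T and NK cell, hepatocyte and stellate cell genes. T and NK cell markers had summed levels of 846 to 1289, 798 to 1366 and 190 to 198 in WT1-high, WT1-intermediate and WT1-negative samples, and stellate markers 18671 to 22114, 19909 to 25371 and 7541 to 10145. Lower case sequences are from the deposited probe table and gene order is from RefSeq.

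According to the methods, 3 injured animals gave the 6 liver-derived samples. Across probes, deviations from the group mean correlated at 0.35 between the arrays numbered 1, 0.34 between those numbered 8 and 0.47 between 29 and 30, and at -0.39 to 0.03 for the other 6 combinations. The arrays were therefore taken as paired, and the fit reported has no block, as in the study's outline. Blocked values are given where they change a call between the WT1-positive populations. Against WT1-negative cells, the fixed block with 29 and 30 as 1 animal moved the further pathway count from 11 to 12 in WT1-high cells. In WT1-intermediate cells it moved that count from 11 to 13. The animals behind the WT1-negative arrays were not given in the sources used here, so p-values there measure the spread between samples. The steps were tested on simulated data.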

Additional observations from a re-analysis of the deposited data

Results flagged for a closer look

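For 5 genes the difference from WT1-negative cells was not the same in the 2 WT1-positive populations, by limma's direct test of WT1-high against WT1-intermediate cells at an adjusted p under 0.05. The difference in WT1-high minus that in WT1-intermediate cells was -0.99 for the synthase gene Has2 and -2.49 for the pentraxin gene Ptx3 on the log2 scale. It was -0.86 for Hexa, -0.91 for Gusb and -0.93 for the clearance receptor gene Stab2. In this fit, which has no block, all 5 were lower in WT1-high cells, and their limma adjusted p lay between 0.0014 (Ptx3) and 0.038 (Stab2). Before normalization the intensities of Has2, Hexa, Gusb and Stab2 overlapped between the WT1-positive populations. With a fixed block on the label numbers Has2, Hexa and Stab2 lost the call (limma adjusted p 0.075, 0.051 and 0.052), and Gusb and Ptx3 kept it (0.046 and 8.5e-04). That block added calls for Gfpt2, higher in WT1-high cells, and Lyve1, lower (both 0.027). Both were also called with the other replicate blocks, which added Itih4 as higher in WT1-high cells (0.018 with 29 and 30 as 1 animal, 0.030 with the random block). The summed macrophage markers were lower in WT1-high cells, as the 5 genes were (4765 to 7725 against 15796 to 25194 on the linear scale), and the part of these markers was not tested.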

How the results depend on the processing

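Has1 and Vcan higher, and Hyal1 and Hyal2 lower, than in WT1-negative cells kept their sign and call in every alternative in which their probes were tested. Detection on all 9 arrays dropped the Has1 and Vcan probes, so that 3 of 4 genes (WT1-high) and 2 of 4 (WT1-intermediate) were called against WT1-negative cells, and 6 of 12 further pathway genes in WT1-high cells; fewer genes were tested. Between the WT1-positive populations the count of called genes among the 6 fell from 1 to 0 without background correction, with median scaling, with no filter, when the fit held only the pair of groups compared, and with a fixed replicate block on the label numbers, and was 0 to 1 when each array was left out. The further pathway count went from 4 to 7 with a fixed replicate block taking 29 and 30 as 1 animal and with a random one on the label numbers (adding Gfpt2, Lyve1 and Itih4), and ranged from 2 to 5 when each array was left out (2 without WT1-intermediate 1, WT1-high 1 or WT1-high 8). With the fixed replicate block on the label numbers this count stayed at 4. Hexa (limma adjusted p 0.051) and Stab2 (0.052) lost the call, and Gfpt2 and Lyve1 gained one (both 0.027).

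Median scaling moved the median of all tested probes from 0.05 to 0.45 between the WT1-positive populations, and from -0.13 to -0.44 for WT1-intermediate against WT1-negative cells. Under it, uncalled differences between the WT1-positive populations turned to 0.16 (Hyal1), 0.59 (Hyal2) and 0.36 (Cd44), beside that shift, and Has2 in WT1-intermediate against WT1-negative cells to -0.032. Cd44 was then called lower there (-0.82, limma adjusted p 0.0079), and with array weights in WT1-high against WT1-negative cells (-0.44, limma adjusted p 0.030). Its mean over all tested probes was 0.52 and 0.82.

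Other uncalled values turned sign when an array was left out. Has1 between the WT1-positive populations ranged from -0.30 (without WT1-intermediate 1) to 0.38 and was -0.027 without WT1-high 8. Hyal2 there ranged from -0.27 to 0.081 (without WT1-high 29) and was 0.038 without WT1-intermediate 1. Cd44 in WT1-intermediate against WT1-negative cells ranged from -0.25 to 0.071 (without WT1-intermediate 8) and was 0.032 without WT1-negative 3. Has2 in WT1-high against WT1-negative cells lost its call without background correction, with median scaling, and without WT1-high 1 or WT1-negative 3 (limma adjusted p 0.064 to 0.073). Causes were not tested.

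Over all probes, the 730 calls between the WT1-positive populations became 462 without background correction, 2684 with median scaling, 335 with no filter, 339 with the compared groups alone, 1656 and 1752 with the replicate blocks (29 and 30 as 1 animal; random on the label numbers), and as few as 324 with an array left out. Calls lower in WT1-high cells made up 74.5% of all calls, 60.6% without background correction and 4.51% with median scaling. Against WT1-negative cells, detection on all 9 arrays gave 7970 and 7716 calls, and median scaling moved the lower share from 57.9% to 76.9% for WT1-intermediate cells. A block by slide was not run, since no slide was given, and the fixed block on label numbers applies only between the WT1-positive populations. Dim probes, such as those of Has2, Vcan, Itih1 and Itih5, limit what could be resolved.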
